A study of Populus trichocarpa with 18 samples.

Results

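Of the 11294 poplar genes counted in normal or tension wood, 143 had at least 10 counts over the 9 normal libraries and no count in any of the 9 tension libraries. These are called the normal-only genes here. They were chosen by exactly those counts: the identifier is listed in the normal table with a sum of 10 or more and is absent from the tension table. They are 10.5% of the 1367 genes with a normal sum of at least 10, and 3.12% of all normal counts. The difference between the woods that chose them is therefore described without a test. Tests are kept to the regions of normal wood, which the choice did not name.

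The libraries come from wild-type Populus trichocarpa (black cottonwood) trees, aged 5 to 12 months and grown from branch cuttings. Stem-differentiating xylem was cut by laser from 16 µm cross-sections of debarked stems into bands, of which Region 1, Region 2 and Region 3 were sequenced. The tension groups are tension wood of stems bent for 21 days; the normal groups are normal wood of the same species and genotype, and the labels do not say whether those trees were bent. Each of the 6 groups (3 regions in 2 woods) has 3 biological replicates, each pooled from about 1600000 µm2 of a region, so a band holds every cell type lying in it. The labels do not say which band lay nearest the cambium.

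Xylem is the water-conducting and supporting tissue of the stem, and wood is its thickened, lignified form. Tension wood is the wood that broadleaf trees form on the upper side of a bent stem; its fibres commonly carry an inner gelatinous layer that is rich in cellulose and poor in lignin. Laser capture gives very little RNA, and the libraries used here tag transcripts next to the poly(A) tail, so a gene is seen through one short stretch at its 3′ end. In bulk tissue of this kind, fewer cells that use a gene and less RNA per cell cannot be told apart.

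The RefSeq gene table at hand holds 0 of the 11294 identifiers, so none of the normal-only genes can be given a name or a role here, and no sequence of them was at hand. They are named by identifier, whose first 3 digits give the chromosome. As a check of the tissue, 34 identifiers recalled from published poplar gene models were looked up. They stand for secondary wall cellulose synthases, which make wall cellulose, for enzymes of monolignol synthesis, which make lignin precursors, for fasciclin-like arabinogalactan proteins, and for sucrose synthases, which feed wall building. Of these, 32 were listed in normal wood, 25 of them with at least 10 counts, and together they took 2.14% of normal and 8.55% of tension counts. None of the 34 was a normal-only gene. Markers of tissues outside the xylem need gene descriptions and were not analysed here.

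Depth differed strongly between the woods. Normal libraries held 6254 to 20080 counts and tension libraries 8982 to 89358, or 96725 and 426338 counts over each wood, a ratio of 4.41. By region the tension total was 6.71 times the normal total in Region 1, 3.71 times in Region 2 and 2.00 times in Region 3. A floor of 3 counts over all tension libraries is 7.04 CPM. CPM scales a gene's counts to the total of its library, or of a group of libraries where pooled. The least abundant normal-only gene stood at 103 CPM over all normal libraries. Each wood is in a table of its own and the preparation is not described by wood, so wood and preparation, sequencing or counting cannot be told apart. The profiles of the woods had little in common: across the 4347 genes in both tables, the Spearman correlation of a normal with a tension library was 0.057 to 0.146. It was 0.581 to 0.631 between normal and 0.658 to 0.900 between tension libraries (genes are not independent replicates). The labels do not say that both tables were counted with the same strand setting and annotation, which was not tested. A 0 in tension wood, and every fold bound below, is therefore a statement about these 2 tables as deposited.

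The normal-only genes were of low to middling abundance in normal wood. Their sums ran from 10 to 92 counts, with a median of 15 and quartiles of 12 and 24. Of the 143 genes, 93 had 10 to 19 counts, 50 had at least 20 and 10 had at least 50, and the 10 largest held 21.5% of all counts in the set. No gene with 100 or more normal counts belonged to the set, although 264 genes reached that level. The share of genes absent from tension wood was lower at higher abundance, from 93 of 440 genes with 10 to 19 normal counts (21.1%) to 40 of 410 with 20 to 49 (9.76%) and 10 of 253 with 50 to 99 (3.95%).

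**Figure D1:**
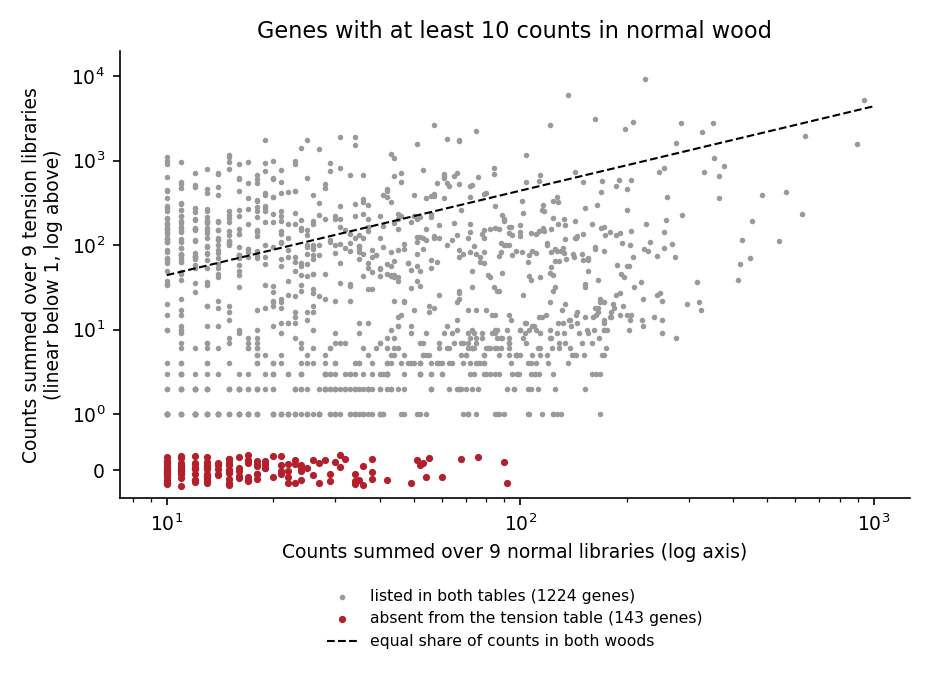
Each point is a gene with at least 10 counts in normal wood, placed by its counts summed over the 9 normal libraries (horizontal, log axis) and the 9 tension libraries (vertical, linear below 1 and log above). The 143 normal-only genes lie at 0 on the vertical axis, spread slightly for visibility; directly above them lie 120 genes with 1 tension count, and the dashed line marks an equal share of counts in both woods.

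The set had no gap around it. Among the 1367 genes with at least 10 normal counts, 120 had 1 tension count, 86 had 2 and 67 had 3, against the 143 with none. Just outside the set, the genes with 1 tension count had a median normal sum of 21.5, and the 3 with the largest sums were Potri.003G070600.v4.1 at 168 normal counts, Potri.002G141500.v4.1 at 130 and Potri.018G095100.v4.1 at 127. All 3 exceeded the largest sum of any normal-only gene, 92 counts, so a single tension count separated these genes from the set. The single tension count fell in a Region 1 library for 24, 21 and 25 of the 120 genes (replicates 1 to 3), in a Region 2 library for 16, 16 and 12, and in each Region 3 library for 2. Depth differed as well: the Region 1 libraries held 20.8%, 21.0% and 15.3% of all tension counts. The Region 2 libraries held 9.18%, 13.2% and 9.24%, and the Region 3 libraries 6.47%, 2.11% and 2.74%. The match was not close throughout. The Region 3 library of replicate 1, with 6.47% of the counts, held the single count of 1.67% of the 120 genes. The Region 1 library of replicate 3, with 15.3%, held that of 20.8%. How far depth accounts for this was not tested. At the other threshold, 19 normal-only genes had exactly 10 counts, and 21 further genes absent from tension wood had 9.

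A count of 0 in tension wood was a stronger limit for some genes than for others. At an equal share of counts, the normal-only genes would have had from 44.1 to 406 counts in tension wood. Against the floor of 3 counts over all tension libraries, they were 14.7-fold to 135-fold higher in normal wood as counted. The median was 22.0-fold. These folds leave out the counting error of the normal counts. Bounds were also taken from the lower limit of an exact Poisson interval for the normal counts. They were 7.05-fold for genes with 10 counts, 12.3-fold for those with 15 and 109-fold for the gene with 92. Folds and bounds both rest on the counts that chose the genes, and the bounds cover counting error only. By region the folds as counted shrank with tension depth: 140 genes exceeded the tension floor of 12.3 CPM in Region 1, with a median of 13.4-fold. In Region 2, 138 exceeded 22.2 CPM, with a median of 8.66-fold, and in Region 3, 121 exceeded 62.2 CPM, with a median of 3.33-fold. A single normal count was 27.6 CPM over Region 1 and 27.5 CPM over Region 2, already above those floors. The 140 and 138 are therefore the genes with any count there, as depth alone fixes. Folds that rest on so few normal counts are weak.

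Potri.001G089900.v4.1, on chromosome 1, had the largest sum, 92 counts. It had 12, 9 and 15 counts in replicates 1 to 3 of Region 1, then 18, 10 and 7 in Region 2, and then 8, 6 and 7 in Region 3. Every normal library thus held at least 6 counts, and none of the tension libraries held any. Its level was 1002 ± 289 CPM in Region 1, against 990 ± 124 in Region 2 and 893 ± 199 in the Region 3 libraries (SD, n = 3). Over all normal libraries it stood at 951 CPM (exact 95% Poisson interval 767 to 1167). That was 135-fold above the tension floor as counted, and 109-fold from the lower limit of the interval.

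Potri.006G209700.v4.1, on chromosome 6, had 9, 26 and 10 counts in Region 1, 12, 9 and 9 in Region 2 and 4, 5 and 6 in Region 3. The Region 1 library of replicate 2 was the high one; the other libraries lay between 4 and 12 counts. Its mean level was 1275 ± 871 CPM in Region 1 and 662 ± 279 CPM in Region 3 (SD, n = 3), and the 2 groups overlapped. Potri.006G260200.v4.1, on the same chromosome, had 11, 4 and 11 counts in Region 1, 16, 7 and 3 in Region 2, and 10, 8 and 6 in Region 3. In CPM its Region 3 libraries were close together, at 990 ± 28.3 CPM, against 713 ± 325 in Region 1 (SD, n = 3), and these groups overlapped as well.

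Potri.010G036400.v4.1, on chromosome 10, had 8, 10 and 10 counts in Region 1, 12, 6 and 5 in Region 2 and 10, 6 and 1 in Region 3. Only the Region 3 library of replicate 3 was low among its 9 libraries. Potri.002G056200.v4.1, on chromosome 2, had 14, 4 and 4 counts in Region 1, 9, 4 and 6 in Region 2 and 6, 5 and 2 in Region 3. Potri.004G235100.v4.1, on chromosome 4, had 8, 3 and 3, then 11, 6 and 3, then 8, 6 and 4 counts in Regions 1 to 3. Its mean level was 374 ± 190 CPM in Region 1, against 543 ± 137 in Region 2 and 733 ± 87.1 in the Region 3 libraries (SD, n = 3). Its Region 3 libraries all lay above its Region 1 libraries, but its Region 3 against Region 1 log2 fold change of 0.92 (SE 0.70) was not called by the edgeR test (unadjusted p = 0.185).

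Some of the other abundant normal-only genes owed much of their sum to 1 library. Potri.001G419100.v4.1, on chromosome 1, had 9, 4 and 5 counts in Region 1, 7, 1 and 1 in Region 2, and 2, 4 and 27 in Region 3. The Region 3 library of replicate 3 alone held 45.0% of its 60 counts. Potri.005G040100.v4.1, on chromosome 5, had 5, 3 and 5 counts in Region 1, 27, 3 and 3 in Region 2 and 3 in each Region 3 library. The Region 2 library of replicate 1, the deepest normal library, held 49.1% of its 55 counts. Potri.016G105100.v4.1 and Potri.016G140500.v4.1, both on chromosome 16, had their largest counts in that same library, 20 of 53 and 13 of 51. Both were counted in all 9. In CPM, Potri.016G140500.v4.1 did not peak there: it reached 959 CPM in a Region 3 library, against at most 673 CPM in Region 2.

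**Figure D2:**
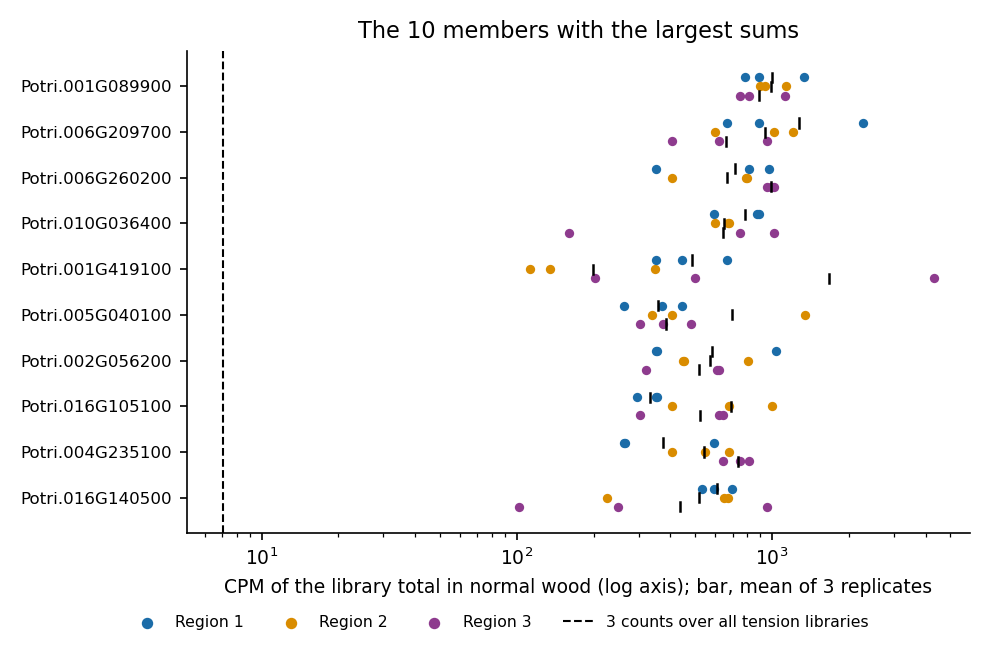
Points show the level of the 10 normal-only genes with the largest sums in each normal library, in CPM of the library total (log axis), coloured by region; black bars are means of 3 replicates and the dashed line is the floor of 3 counts over all tension libraries, 7.04 CPM. A single count is 49.8 CPM in the deepest normal library and 160 CPM in the shallowest. Depth alone thus puts all 90 points to the right of that line, and nothing is read from it. Potri.001G419100 has 1 Region 3 library far from the rest.

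Most of the normal-only genes were seen repeatedly. A count was present in all 3 biological replicates for 133 of the 143 genes, in at least 7 of the 9 libraries for 82 and in all 9 for 26; the fewest was 3 libraries, for 5 genes. Genes of the same abundance that also had tension counts were seen about as often. With 10 to 19 normal counts, 89.2% of normal-only and 90.8% of the other genes were counted in every replicate, over a median of 6 libraries each. With 20 to 49 counts the median was 8 libraries in both sets.

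The other side of this is how often the counts of a gene lay in 1 library. More than 50% of the sum lay in a single library for 21 of the 143 (14.7%), against 58 of the 1224 other genes (4.74%). Abundance differs between those sets, and no test was made. With 10 to 19 counts it was so for 18 of 93 normal-only genes (19.4%) and 45 of 347 other genes. The Region 2 library of replicate 1 held the peak for 12 of the 21, and for 23 of the 58 other genes; it is the deepest normal library. Among these genes were Potri.008G185100.v4.1, with 21 of its 31 counts there, and Potri.005G208500.v4.1, with 18 of 23 counts in the Region 3 library of replicate 3. Potri.012G001600.v4.1 had the highest concentration, with 9 of 11 counts in the Region 1 library of replicate 2. These 3 genes were chosen after their values were seen.

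Levels were also read in replicates that a choice of genes had not used. Genes were chosen again on 2 replicates of each wood, with at least 10 normal counts and no tension count in those, and then measured in the replicate left out. With replicate 1 of both woods left out, 107 genes were chosen. They took 3.75% of the counts of normal replicate 1 and 0.035% of those of tension replicate 1, a ratio of 106. With replicate 2 left out, 140 genes took 3.92% against 0.042%, a ratio of 93.3, and with replicate 3 left out, 138 genes took 4.19% against 0.046%, a ratio of 91.9.

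In the left-out replicates 1 to 3, 99.1%, 93.6% and 96.4% of the chosen genes were counted in normal wood. In tension wood 37.4%, 31.4% and 29.7% of them had at least 1 count, with totals of 55, 65 and 53 counts over all chosen genes. Absence from 2 tension replicates was thus not absence from the other one for 40, 44 and 41 genes, while the level stayed low. By region the ratio of shares ran from 68.0 to 96.9 in Region 1, from 96.0 to 124 in Region 2 and from 124 to 184 in Region 3. In Region 3 it rests on 7, 3 and 3 tension counts. With 1 replicate left out at a time, these values carry no test. The left-out replicates lie in the same 2 tables, so they share any difference of preparation, sequencing or counting between the woods. The sets chosen this way are not the set of normal-only genes, and no such ratio was made for all genes.

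**Figure D3:**
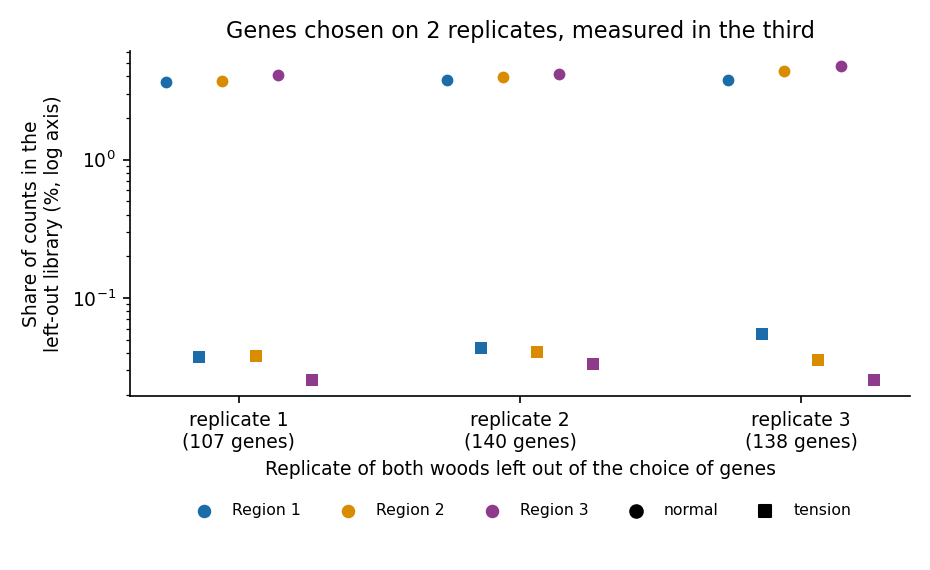
Share of library counts (log axis) taken by genes chosen on 2 replicates of each wood, measured in the replicate left out; circles are normal and squares tension libraries, coloured by region. Normal shares lie between 3.61% and 4.72% and tension shares between 0.025% and 0.055%.

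When a normal replicate alone was left out, median levels were lower in that replicate than in those used for the choice. Genes absent from tension wood and chosen on normal replicates 2 and 3 had a median of 281 CPM there and 207 CPM in replicate 1. The medians were 219 against 141 CPM for replicate 2 left out, and 209 against 200 CPM for replicate 3. Leaving out a tension replicate instead gave 200, 200 and 192 genes, of which 28.5%, 28.5% and 25.5% had a count in the replicate left out, at most 3, 7 and 3 counts for any gene.

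The regions of normal wood were then compared, since the choice used the sum over all 9 libraries and did not name a region. It was not neutral to region, however. It also required 0 tension counts, and the tension totals were 243096, 134988 and 48254 counts in Regions 1 to 3. How far this weighed on the regional values below was not tested. The set took 3.03% ± 0.30 of Region 1 counts, 3.06% ± 0.21 of Region 2 counts and 3.34% ± 0.63 of Region 3 counts (SD, n = 3). The 3 groups overlapped. In Region 3 the shares were 3.04%, 2.92% and 4.06% in replicates 1 to 3, so the high value is 1 library, which also had the smallest total of all, 6254 counts. Without that replicate the Region 3 mean was 2.98%. At least 1 count was found for 140 of the genes in Region 1, 138 in Region 2 and 135 in Region 3, with totals of 36221, 36359 and 24145 counts.

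**Figure D4:**
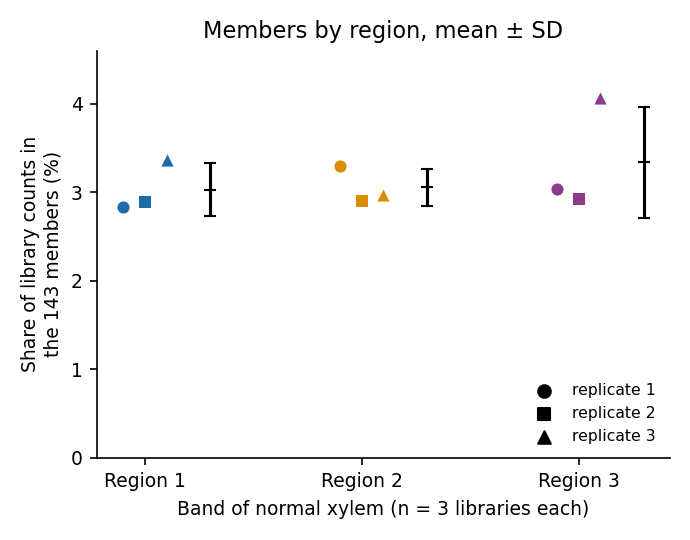
Each point is the share of a normal library's counts taken by the 143 normal-only genes, by region and replicate (n = 3 libraries per region); black bars show the mean ± SD. The Region 3 library of replicate 3 lies at 4.06% and the other 8 libraries between 2.83% and 3.37%.

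In every library of a region, counts above 0 were found for 85 genes in Region 1, 69 in Region 2 and 52 in Region 3, so for these the normal and tension libraries did not overlap. That is 59.4%, 48.3% and 36.4% of the 143. Over all genes with a normal sum of at least 10, every normal library lay above every tension library in CPM for 56.7%, 52.1% and 47% in Regions 1 to 3. Both figures use the contrast that chose the genes, and nothing is read from them.

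No normal-only gene was called between regions in the edgeR quasi-likelihood test over all 1367 genes, with the biological replicate as a block. The adjusted calls were 0 of 143 in each comparison, against a background of 0% of all genes tested, and DESeq2 called 0 as well. At an unadjusted p under 0.05, edgeR gave 11 of 143 genes for Region 2 against Region 1 (7.69%, background 4.9%). It gave 8 for Region 3 against Region 1 (5.59%, background 5.63%) and 8 for Region 3 against Region 2 (5.59%, background 4.32%). The smallest Benjamini-Hochberg adjusted p of a normal-only gene was 0.976, 0.069 and 0.986 in that order.

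The fitted directions are given beside those of all genes tested. For Region 2 against Region 1, 71 of the 143 genes had a fitted log2 fold change above 0 (49.7%, against 47.7% of all genes tested), with a median of -0.00073 against -0.057 over all genes. For Region 3 against Region 1 these were 65 genes (45.5% against 47.1%) and a median of -0.11 against -0.063. For Region 3 against Region 2 they were 74 genes (51.7% against 48.0%) and a median of 0.081 against -0.042. With the 8, 11 and 13 genes at 0 counts in a compared region placed at their bound from the floor of 3 counts, the medians were -0.0055, -0.074 and 0.093. The shares lie near those of all genes, so they say nothing particular about the set, and leaving out 1 replicate moved its medians between -0.28 and 0.21.

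For each comparison, the gene with the smallest p in each direction is given. All but Potri.001G419100.v4.1 had 0 counts in 1 region and so reached the sum of 10 through the others; no fold is given for these. Potri.005G208500.v4.1, on chromosome 5, had 0 counts in all Region 1 libraries, 1, 2 and 0 in Region 2 and 2, 0 and 18 in Region 3. Region 3 was higher than Region 1 in 2 of 3 replicates, and the gene was not called (edgeR adjusted p = 0.069). Without the library of 18 counts, 2 counts would remain in Region 3, under the floor of 3. It was called without the replicate block (adjusted p = 0.0030) and without replicate 2 (adjusted p = 0.048), and not without replicate 3, which holds the 18 counts (adjusted p = 0.947).

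Potri.002G229000.v4.1, on chromosome 2, showed the opposite pattern. It had 6, 3 and 2 counts in Region 1, 5, 1 and 2 in Region 2 and 0 in all 3 Region 3 libraries. Region 3 was lower than Region 1 and than Region 2 in 3 of 3 replicates, and neither difference was called (edgeR adjusted p = 0.782 and 0.986). Potri.001G419100.v4.1 had the smallest p among genes higher in Region 3 than in Region 2. Its 33 counts against 9 gave a log2 fold change of 2.27 (SE 0.71, edgeR adjusted p = 0.986), and 27 of those 33 came from 1 library. That value was 0.41 without replicate 3, which holds that library, and 3.90 without replicate 1.

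Between Region 2 and Region 1, the smallest p in each direction belonged to Potri.015G089700.v4.1 and Potri.006G186600.v4.1. The first had 0 counts in all Region 1 libraries and 2 in each Region 2 library, and was not called (edgeR adjusted p = 0.976). Its Region 3 counts were 0, 8 and 0. The second had 6, 1 and 2 counts in Region 1 and 0 in all Region 2 libraries, and was not called either (edgeR adjusted p = 0.976). Its Region 3 counts were 2, 0 and 1.

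**Figure D5:**
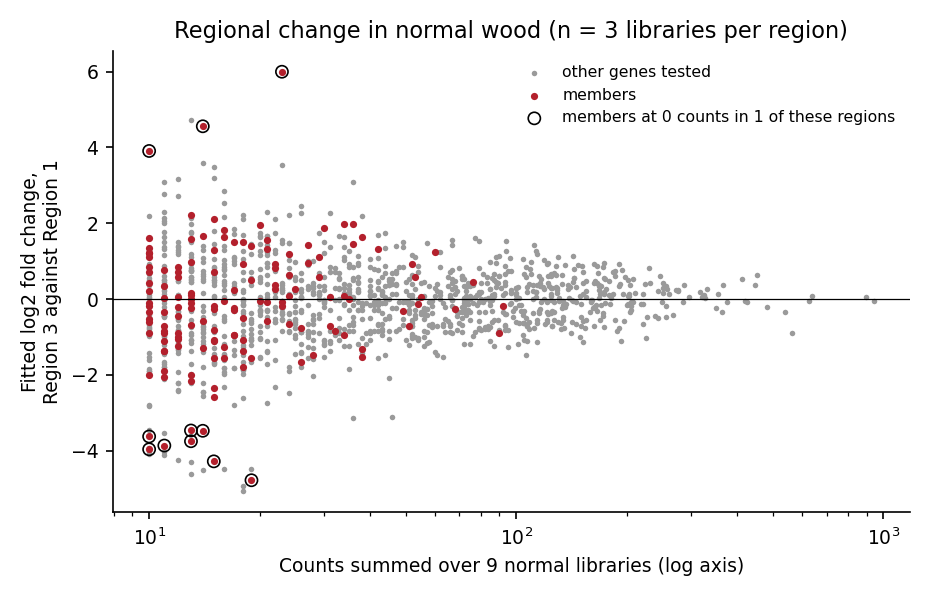
Fitted log2 fold change of Region 3 against Region 1 in normal wood (vertical) for each gene tested, by its counts summed over 9 normal libraries (horizontal, log axis); red points are the 143 normal-only genes. The values fan out towards low counts for both kinds of gene; the 11 circled genes have 0 counts in 1 of these regions, so their fitted values depend on the prior count of the fit and are no estimate of size.

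The 10 most abundant normal-only genes were spread over directions. Fitted log2 fold changes ran from -1.03 to 1.10 for Region 2 against Region 1, with 3 of 10 above 0. They ran from -0.90 to 1.24 for Region 3 against Region 1, with 5 of 10 above 0, and from -0.90 to 2.27 for Region 3 against Region 2, with 4 of 10 above 0. For Potri.001G089900.v4.1, the most abundant, the Region 3 against Region 1 value was -0.18 (SE 0.56). Standard errors of this size leave room for regional differences that were not detectable at this depth.

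The set was scattered over the genome. Normal-only genes came from all 19 chromosomes and from 0 of the 3 unplaced scaffold genes with at least 10 normal counts. Chromosome 1 had the most, 19 of its 150 genes with at least 10 normal counts (12.7%). The highest share was 9 of 47 on chromosome 16 (19.1%) and the lowest 3 of 81 on chromosome 8 (3.70%), around the 10.5% of all such genes. No test was made of these shares.

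No 2 normal-only genes had adjacent locus numbers, which run in steps of 100 along a chromosome for most genes. The same was not counted for other sets of genes, so nothing is read from it. The closest pair, chosen after its values were seen, was Potri.005G031466.v4.1 and Potri.005G031899.v4.1, 433 locus numbers apart. Both peaked in the deepest normal library. The first had 3, 0 and 1 counts in Region 1, 8, 1 and 1 in Region 2 and 0, 1 and 0 in Region 3. The second had 2, 0 and 2, then 7, 2 and 0, then 0 in all 3 libraries. Whether they share tags as near-identical copies was not tested. In the next pair, Potri.019G128600.v4.1 peaked in Region 2 of replicate 1 with 7 of 16 counts, and Potri.019G128100.v4.1, 500 numbers away, had at most 3 counts in any library.

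Neighbouring genes were looked up because a tag near the end of a gene can be counted for the gene beside it. Of the 130 normal-only genes whose locus number is a multiple of 100, 47 (36.2%) had a direct neighbour number listed in tension wood, against 500 of 1160 (43.1%) of the genes in both tables with at least 10 normal counts. A neighbour with at least 100 tension counts was found for 8 (6.15%) and 83 (7.16%). A direct neighbour was listed in normal wood for 42 (32.3%) and 410 (35.3%). Locus numbers that are not a multiple of 100 made up 9.09% of the normal-only genes and 5.23% of the genes in both tables.

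The same count made from the other side gave a larger share. A gene at the level of 10 normal counts would have 44.1 counts in tension wood, and of 2254 genes with at least that tension sum, 416 (18.5%) were absent from the normal table, against the 10.5% absent from tension wood. The normal table is the shallower one, so these 2 shares were not set against each other by a test.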

How the data were processed

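Whole-number counts per gene and library were deposited by the authors in 1 table per wood; per the labels' protocols the libraries were made with a QIAGEN UPX 3′ kit, and UMI-tools, STAR and featureCounts are listed per the submitters' processing notes, while their settings and versions and the genome build are not given in the sources used here. Whether a count is a read or a molecule is not given either, so intervals and floors cover counting error only. All 18 columns matched a labelled sample and 0 were left unused; no 2 libraries held identical values. Genes without a count are absent from a table and were taken as 0.

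Regions of normal wood were compared over 9 libraries by a quasi-likelihood fit in edgeR 4.0.16 (R 4.3.3), using TMM factors, the biological replicate as a block and Benjamini-Hochberg adjustment over all 1367 genes with a normal sum of at least 10. That filter keeps every normal-only gene; filterByExpr at a minimum count of 10 would keep 2. The threshold was an adjusted p of 0.05. The script was tested on simulated data that varied less between libraries than these data, so that test does not tell what the comparisons could detect here. The block follows the labels, which tie 3 regions to 1 biological replicate; correlations of deviations from the region means ran from -0.040 to 0.067 over 9 same-numbered pairs of libraries and from -0.060 to 0.080 over 18 differently numbered ones. DESeq2 1.42.0, other scaling and filters, no block and leaving out replicates were alternatives. P-values measure the spread between these pooled samples.

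The genes, lists and tests were chosen with earlier results of these data known. Genes named in the text are the 10 with the largest sums and the 3 largest with 1 tension count. Those with the smallest p in each direction per regional comparison are named too. So are the next closest pair by locus number and the genes said to be chosen after their values were seen. The rule also named genes by description, and none could be named so, because no identifier matched.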

Additional observations from a re-analysis of the deposited data

How the results depend on the processing

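The number of normal-only genes follows its thresholds: 314, 50 and 10 genes had a normal sum of at least 5, 20 and 50, and 263 and 416 had at most 1 or at most 3 tension counts. It was 67 to 97 with a normal replicate left out (67 without replicate 1, which holds the deepest library) and 192 to 200 with a tension replicate left out. Without the Region 2 library of normal replicate 1 it was 106 and without the Region 3 library of replicate 3 it was 130, both chosen after seeing the data. The share of normal counts in Regions 1 to 3 was 1.62%, 1.91% and 2.13% with a sum of at least 20, 4.37%, 4.09% and 4.39% with a sum of at least 5, and, leaving out a replicate, 2.86% to 3.13%, 2.94% to 3.14% and 2.98% to 3.55%. Without genes that hold over 50% of their counts in 1 library, an alternative chosen after seeing the data, Regions 1 to 3 stood at 2.76%, 2.78% and 3.04%. For Region 3 against Region 1, 1 normal-only gene, Potri.005G208500.v4.1, was called with no replicate block (with 2 calls over all 1367 genes, against 0 with it) and 0 to 1 with a replicate left out (1 without replicate 2); the other 2 regional comparisons kept 0 calls among these genes in all 11 alternatives, and the block changed no other call among these genes. With filterByExpr only 2 (minimum count 10) or 38 (minimum count 3) of the genes could be tested. Leaving out a replicate moved the median regional change of the set between -0.28 and 0.21 on the log2 scale. Normal libraries of 6254 to 20080 counts limit these tests: 93 of the 143 genes had under 20 counts over 9 libraries.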
